A study of Homo sapiens with 6 samples.

Results

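The synaptic vesicle release machinery was examined here as 39 named genes, each taken from the count table by its gene symbol, out of 58395 genes in the table. The 39 genes code for calcium sensors, SNARE proteins, clamping and priming factors, active zone scaffolds, vesicle membrane proteins and the proteins that retrieve vesicles after release. Of the 39, 36 had enough reads to be tested among 16778 tested genes, and AMPH, SH3GL2 and SV2B did not. The list was fixed by gene name, and reads entered the rule only where a symbol repeated, by taking the entry with most reads. The members were chosen with earlier results of these data known.

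The libraries came from SH-SY5Y, a human neuroblastoma cell line, 3 of them labelled as overexpressing the Tau 0N4R isoform and 3 labelled as expressing a control vector. By the methods of the study, both groups were transfected by lipofection, with no selection step described, with the Tau coding sequence or with the empty plasmid, and were then differentiated with retinoic acid followed by BDNF in serum-free medium. Nothing in the sources says that replicates were separate cultures, so p-values measure only the spread between these libraries, which may be technical. Such transfection can leave cells without the plasmid, and the library values average over all cells. In such bulk RNA, fewer cells of a type and less RNA per cell cannot be told apart.

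A synaptic vesicle fuses when VAMP on the vesicle zips together with syntaxin 1 and SNAP25 on the plasma membrane. Complexins hold the partly assembled bundle and synaptotagmins trigger fusion when calcium binds them. UNC13 and RIM proteins prepare vesicles at the active zone, and after fusion NSF with its SNAP adaptors takes the SNARE bundle apart while dynamin, amphiphysin, endophilin and synaptojanin recover the membrane. SH-SY5Y cells also hold dense-core granules, which use many of the same proteins, and what these granules stored was not measured here.

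The libraries held 27945481 to 31706415 counted reads, of which 25640 to 46375 fell on the 39 genes. Genes of the mitochondrial genome took 45.8, 57.8 and 53.8% of counts in Tau libraries 1, 2 and 3, against 45.6, 30.5 and 45.6% in control libraries 1, 2 and 3. Levels also followed GC content differently by library, with a Spearman correlation between a gene's GC content and its deviation from the mean over all libraries of 0.44, 0.26 and 0.33 in Tau libraries, against -0.52, -0.38 and 0.12 in control libraries, a description over genes that share each library. Levels below are in CPM, counts scaled to library size with edgeR's trimmed mean of M-values (TMM). MAPT, the gene of Tau itself, had 34.6, 32.6 and 34.6 CPM in the libraries labelled Tau, against 34.8, 51.9 and 41.6 CPM in those labelled control (log2 fold change -0.33, SE 0.18, adjusted p = 0.239 by edgeR), so its counts did not show the overexpression that the labels state. Whether reads from the plasmid were counted was not tested, and every direction below rests on the labels. Summed levels of 8 neuronal markers ran from 1062 to 1152 CPM in Tau libraries, against 1282 to 1431 CPM in control libraries, with 1 marker called lower. Most of that neuronal sum was STMN2, at 438 CPM in Tau and 528 CPM in control libraries, and UCHL1, at 300 and 351 CPM. GAP43 and ELAVL3 had positive log2 fold changes, 0.40 and 0.16, not called, and the other neuronal markers negative ones. Summed levels of 6 noradrenergic neuroblastoma markers ran from 856 to 1054 CPM in Tau libraries, against 1037 to 1291 CPM in control libraries, with 2 called lower. Of those tested, PHOX2A alone had a positive log2 fold change, 0.51, not called. Summed levels of 8 mesenchymal markers, with PRRX1 at 0 everywhere, ran from 418 to 473 CPM in Tau libraries, against 480 to 511 CPM in control libraries. Nearly all of that sum was VIM, with 404, 459 and 463 CPM in Tau libraries, against 474, 492 and 504 CPM in control libraries. The 1 mesenchymal marker called higher was COL1A1, at 5.21 ± 0.811 CPM in Tau and 1.29 ± 0.778 CPM in control libraries (SD, n = 3 each). Glial markers summed to at most 3.39 CPM, with GFAP and SOX10 among those at 0, and immune and endothelial markers to at most 0.110 CPM, with AIF1, PECAM1 and CDH5 at 0. The part of these marker, mitochondrial and GC differences in the results below was not tested except where a value is given.

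Of the 36 tested members, 33 were not called as different between the groups. SYT2, CPLX1 and DNM1, which code for a fast calcium sensor, a SNARE clamp and the membrane-cutting GTPase of endocytosis, were higher in Tau libraries, and no member was called lower. A gene was called where edgeR's quasi-likelihood F test over all tested genes gave an adjusted p under 0.1 and the log2 fold change exceeded 0.5 in size. By that rule 3 of 36 members were higher, or 8.33%, against 9.37% of all tested genes, and 0 of 36 were lower, against 8.42%. DESeq2 and limma-voom also called 0 members lower, while 4 members were lower and 7 higher at an unadjusted p under 0.05 in edgeR, together 30.6% of members against 29.1% of all tested genes. The share called higher was thus near the background, and the median log2 fold change was -0.08 for members, against -0.03 for all tested genes. Negative fold changes were seen in 20 of 36 members (55.6%), against 52.3% of all tested genes. In 7 members (19.4%) every Tau library was above every control library, against 16.1% of all tested genes, and in 6 members (16.7%) every Tau library was below every control library, against 16.8%. The counts depended on single libraries and on scaling: SYT2 was the only member higher without Tau library 2, Tau library 3 or control library 1, and with the GC trend removed, while 7 members were higher and 3 lower without control library 3. CPLX2 was called lower without Tau library 1, 3 members were lower without the low-count filter, and 1 was higher and 6 lower with scaling by total counts. Over all tested genes, calls went from 1572 higher and 1413 lower to 2603 and 2541 of 17212 genes without control library 3. Without control library 1 they were 179 and 71 of 17028 genes. Without Tau libraries 1, 2 or 3 they were 1240 and 732, 657 and 428, or 780 and 422. With the GC trend removed they were 1062 and 663, and with scaling by total counts 559 and 2886. Without the low-count filter they were 2185 and 1923 of 29036 genes.

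The summed level of the 39 genes was 1086, 1078 and 1071 CPM in Tau libraries, against 1085, 1095 and 1091 CPM in control libraries. The highest sum was 1.02 times the lowest, so members above and below their control level balanced to within a few percent on the TMM scale. As a share of all counts, mitochondrial ones included, the members took 0.116, 0.0827 and 0.0921% in Tau libraries, against 0.111, 0.146 and 0.113% in control libraries.

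**Figure D1:**
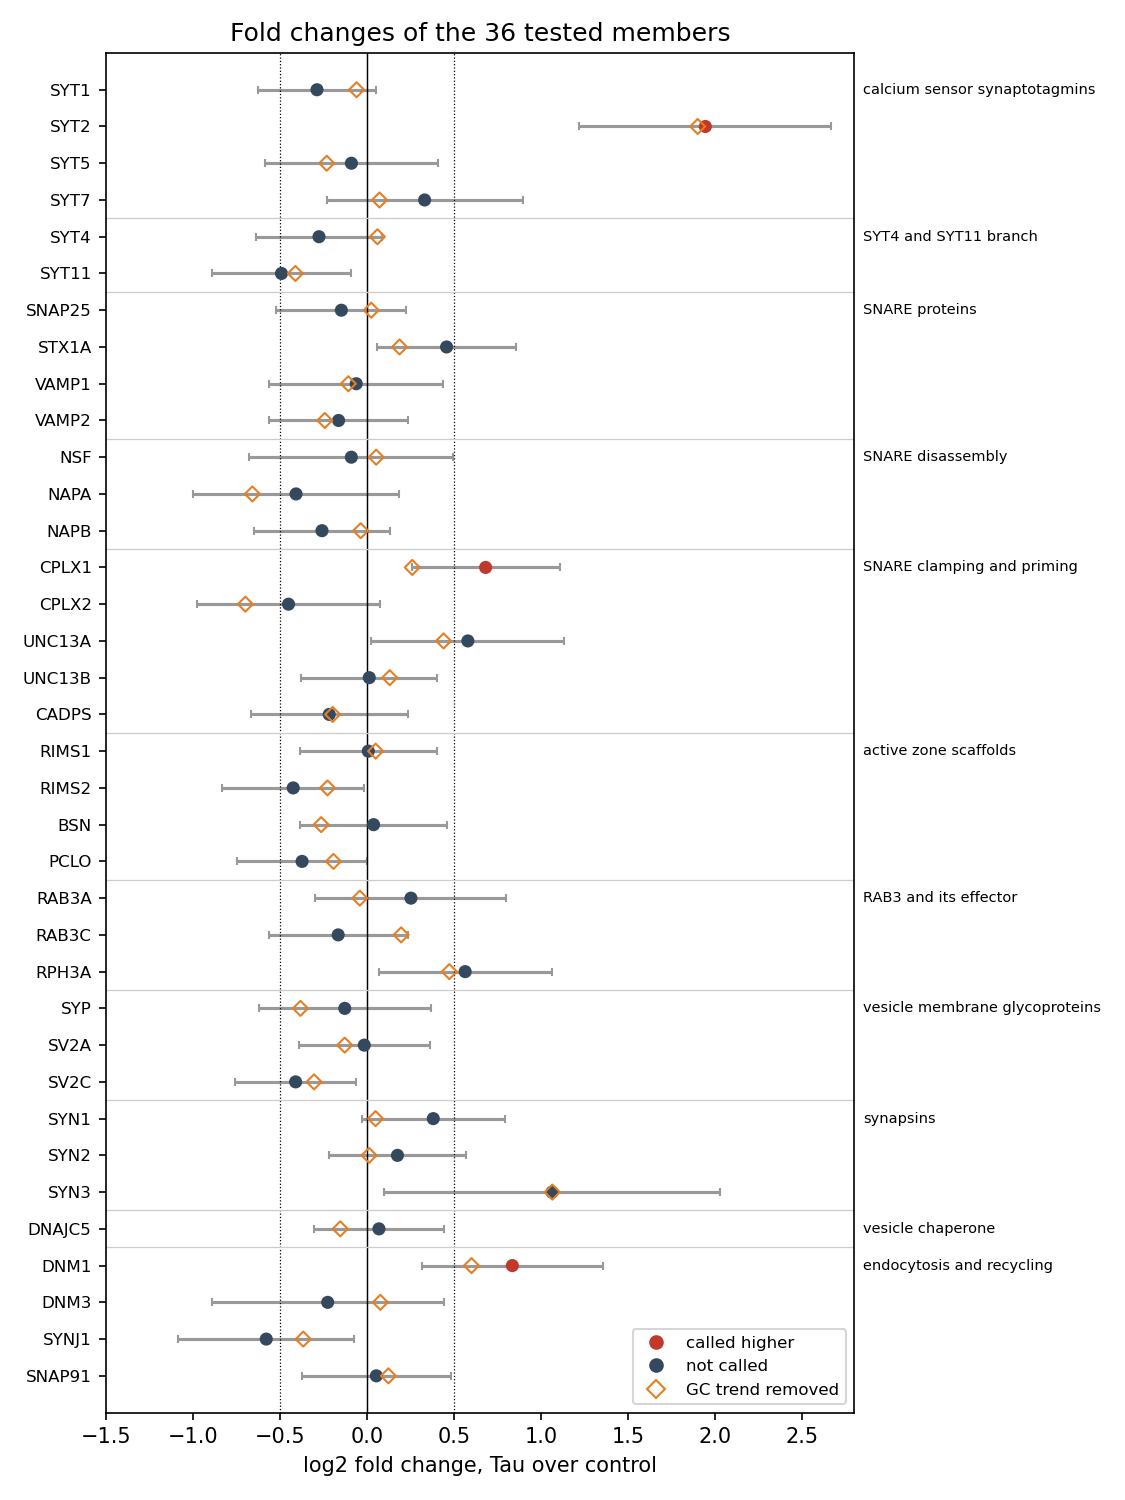
Log2 fold change of Tau over control for the 36 tested members, grouped by role, with 95% intervals from the edgeR fit as bars, red points for called members and open diamonds for the value after removal of the GC trend. SYT2 at 1.94 stands far to the right of the other members, and most intervals cross 0.

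The calcium sensors held the member with the largest fold change. SYT2, the fast sensor of hindbrain and neuromuscular synapses, had 14.5, 7.61 and 6.79 CPM in Tau libraries, against 1.79, 2.24 and 3.51 CPM in control libraries, from 431, 181 and 185 counts in Tau and 58, 95 and 103 counts in control libraries. All Tau libraries were above all control libraries, Tau library 1 being the highest, and the mean was 9.63 ± 4.22 CPM in Tau and 2.52 ± 0.89 CPM in control libraries (SD, n = 3 each). The log2 fold change was 1.94 (SE 0.33, adjusted p = 0.0092 by edgeR), a 3.85-fold higher level. It was called under all 19 alternative settings, with log2 fold changes of 1.54 to 2.25 and adjusted p of 1.72e-11 to 0.0915. SYT2 lies at chr1:202590596-202710454 on the minus strand (GRCh38), and its 3′ exons overlap those of PPP1R12B on the opposite strand over 2111 bases. The strand setting of the counting is not given in the sources used here, so reads in the shared stretch may not be separable. PPP1R12B, a myosin phosphatase subunit, had 14.0, 10.5 and 9.95 CPM in Tau libraries, against 10.8, 9.91 and 9.03 CPM in control libraries (log2 fold change 0.21, adjusted p = 0.495 by edgeR).

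The promoters of SYT2 are shown because it was the most changed member and carries separate start sites. RefSeq promoter windows (GRCh38.p14, 250 bases before to 50 after a start site, on the gene's strand) were available for 34 members in 51 windows, and CPLX1, RIMS2, SNAP25, SYN3 and SYT7 had no entry. In capitals are the GC box GGGCGG on either strand and the motif of EGR factors, GCGTGGGCG, which can overlap a GC box but does not here. The upstream window, chr1:202710405-202710704 on the minus strand, holds GC boxes 130 and 91 bases before the start site, and the inner window, chr1:202643404-202643703 on the minus strand, holds the EGR motif 194 bases and GC boxes 149 and 56 bases before it.
SYT2 upstream promoter: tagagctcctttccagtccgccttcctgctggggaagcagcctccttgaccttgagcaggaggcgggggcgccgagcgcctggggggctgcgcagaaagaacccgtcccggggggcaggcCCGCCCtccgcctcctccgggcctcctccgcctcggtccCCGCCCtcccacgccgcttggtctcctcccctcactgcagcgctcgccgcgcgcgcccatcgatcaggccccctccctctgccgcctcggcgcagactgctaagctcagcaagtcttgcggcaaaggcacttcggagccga
SYT2 inner promoter: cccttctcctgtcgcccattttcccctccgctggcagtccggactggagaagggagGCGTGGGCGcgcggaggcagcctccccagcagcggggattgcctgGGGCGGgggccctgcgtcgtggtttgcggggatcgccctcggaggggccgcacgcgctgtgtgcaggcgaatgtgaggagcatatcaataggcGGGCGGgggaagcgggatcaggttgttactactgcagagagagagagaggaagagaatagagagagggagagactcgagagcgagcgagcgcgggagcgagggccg
A GC box was found in 44.95% of all 35116 promoter windows and an EGR motif in 0.795%. Among members, 27 of 34 genes (79.4%) had a GC box, against 48.3% of 27305 genes with a window. The EGR motif was found in 2 of 34 members (5.88%), SV2B and SYT2, against 0.960% of genes with a window. The member windows had a median GC content of 68.3%, against 58.7% for all windows, and these matches describe letters only.

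SYT1, the fast sensor of forebrain synapses and of chromaffin cells, was the closest relative of SYT2 on the list and had the higher level. SYT1 had 40.2, 35.8 and 37.2 CPM in Tau libraries, against 45.9, 48.6 and 43.8 CPM in control libraries, so every Tau library was below every control library (log2 fold change -0.29, SE 0.16, adjusted p = 0.24 by edgeR, not called). Per length of gene, SYT2 made up 23.1, 15.1 and 13.2% of the pair in Tau libraries, against 3.16, 3.71 and 6.27% in control libraries. The mean share was 17.1 ± 5.26% in Tau and 4.38 ± 1.66% in control libraries (SD, n = 3 each, p = 0.1 in a two-sided exact permutation test, the smallest that 3 against 3 libraries allow). SYT5, a sensor found on dense-core granules as well as synaptic vesicles, had the highest level per length of the 4 calcium sensors. It had 58.2, 75.0 and 81.5 CPM in Tau libraries, against 68.7, 56.7 and 103 CPM in control libraries (log2 fold change -0.09, SE 0.23, adjusted p = 0.821 by edgeR). The groups overlapped. SYT7, the slow high-affinity sensor, also overlapped, with 7.96, 7.11 and 8.92 CPM in Tau libraries, against 6.81, 4.01 and 8.35 CPM in control libraries (log2 fold change 0.33, adjusted p = 0.421 by edgeR).

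SYT4 and SYT11 belong to a branch of synaptotagmins whose first calcium-binding domain lacks a residue needed to hold calcium. SYT4, found on peptide granules, had the highest level per length of all members, at 27.4 CPM per kilobase in Tau and 33.2 CPM per kilobase in control libraries. It had 111, 123 and 131 CPM in Tau libraries, against 151, 155 and 136 CPM in control libraries, with no overlap (log2 fold change -0.28, SE 0.17, adjusted p = 0.292 by edgeR, not called). SYT11, linked to vesicle retrieval, had 55.5, 42.4 and 47.3 CPM in Tau libraries, against 74.8, 73.8 and 55.8 CPM in control libraries. These groups also did not overlap, with Tau library 1 just below control library 3 (log2 fold change -0.49, SE 0.18, adjusted p = 0.104 by edgeR, not called).

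**Figure D2:**
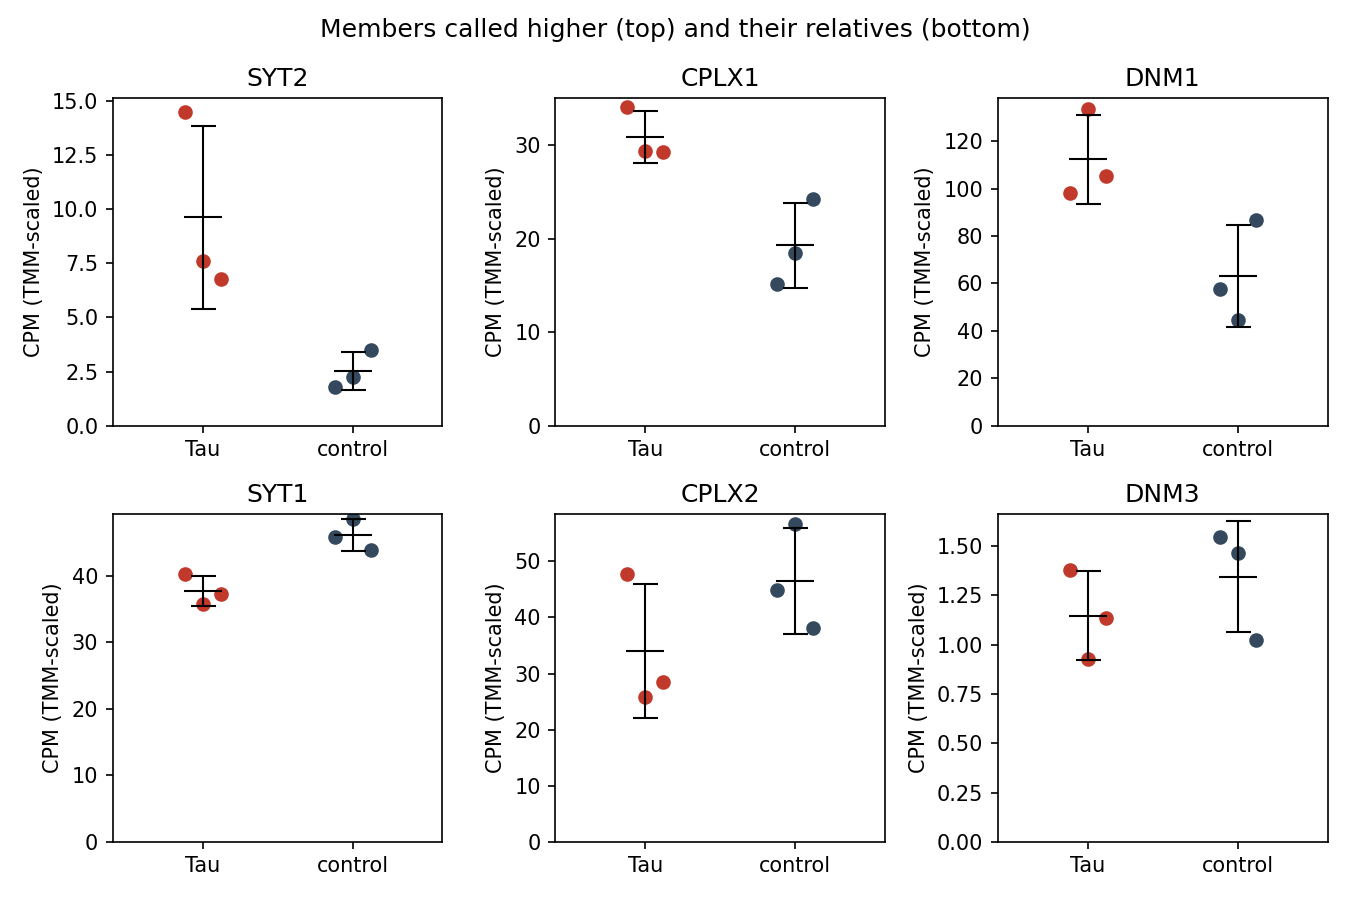
CPM after TMM scaling in each library for the 3 members called higher (top row) and for a relative of each (bottom row), with the mean and SD as bars and Tau left of control. SYT2, CPLX1 and DNM1 show no overlap between groups, SYT1 lies lower in Tau, and CPLX2 and DNM3 overlap.

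None of the 4 SNARE genes was called. SNAP25, the plasma membrane SNARE that botulinum toxin A cuts, was second in level per length among members. It had 85.5, 74.9 and 82.8 CPM in Tau libraries, against 93.1, 99.7 and 76.7 CPM in control libraries, with overlap (log2 fold change -0.15, SE 0.17, adjusted p = 0.597 by edgeR). STX1A, the plasma membrane syntaxin, had 41.5, 43.7 and 43.9 CPM in Tau libraries, against 30.8, 24.9 and 38.4 CPM in control libraries. Every Tau library of STX1A was above every control library, but the test did not pass (log2 fold change 0.46, SE 0.18, adjusted p = 0.125 by edgeR). The vesicle SNAREs overlapped between groups, with VAMP2 at 14.5 ± 1.49 CPM in Tau and 16.3 ± 2.47 CPM in control libraries and VAMP1 at 4.92 ± 0.812 CPM in Tau and 5.14 ± 0.919 CPM in control libraries (SD, n = 3 each).

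The disassembly genes NSF, NAPA and NAPB overlapped between groups and were not called. Their fold changes were negative, but their signs depended on the setting: with the mitochondrial share in the model the log2 fold changes were 0.40 for NSF, 0.27 for NAPA and 0.05 for NAPB, and NSF was also at 0.05 after removal of the GC trend. NAPB, the neuronal SNAP adaptor, had the highest level per length of the 3, with 23.6, 20.5 and 22.8 CPM in Tau libraries, against 25.0, 32.4 and 22.7 CPM in control libraries (log2 fold change -0.26, SE 0.18, adjusted p = 0.362 by edgeR). Control library 2 was the high one for NAPB and also for NAPA, the widely expressed adaptor, which averaged 7.97 ± 1.59 CPM in Tau and 10.6 ± 4.20 CPM in control libraries (SD, n = 3 each, log2 fold change -0.41). NSF, the ATPase that pulls the SNARE bundle apart, averaged 11.1 ± 4.40 CPM in Tau and 11.8 ± 2.66 CPM in control libraries (SD, n = 3 each). Its near-identical copy NSFP1 had at most 8 counts in any library.

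Complexins clamp the SNARE bundle until calcium arrives, and the 2 complexin genes had fold changes of opposite sign, except that CPLX2 was at 0.06 on the log2 scale with the mitochondrial share in the model. CPLX1 had 34.1, 29.4 and 29.2 CPM in Tau libraries, against 15.2, 18.5 and 24.2 CPM in control libraries, with no overlap. The mean was 30.9 ± 2.76 CPM in Tau and 19.3 ± 4.59 CPM in control libraries (SD, n = 3 each), and the log2 fold change was 0.68 (SE 0.20, adjusted p = 0.048 by edgeR). CPLX2 had 47.7, 25.8 and 28.5 CPM in Tau libraries, against 44.9, 56.6 and 38.0 CPM in control libraries. Tau library 1 lay inside the control range of CPLX2 and the other Tau libraries below it (log2 fold change -0.45, SE 0.24, adjusted p = 0.234 by edgeR, not called). Per length, CPLX1 made up 67.7, 77.0 and 75.1% of the complexin pair in Tau libraries, against 49.8, 49.0 and 65.2% in control libraries. The mean share of CPLX1 was 73.3 ± 4.88% in Tau and 54.6 ± 9.13% in control libraries (SD, n = 3 each, p = 0.1 in a two-sided exact permutation test, the smallest possible here).

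The call of CPLX1 depended on the setting. Its transcript has a GC content of 67.1%, and after removal of the trend of fold change with GC content the log2 fold change was 0.26 (adjusted p = 0.332 by edgeR). Scaling by total counts gave 0.36 (adjusted p = 0.362 by edgeR), the mitochondrial share as covariate 0.71 (adjusted p = 0.11), and the call was also lost without Tau library 1 (log2 fold change 0.63), Tau library 2 (0.70), Tau library 3 (0.74) or control library 1 (0.53). CPLX1 lies at chr4:784957-826129 on the minus strand (GRCh38).

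The priming factors UNC13A, UNC13B and CADPS were not called. UNC13A, which opens syntaxin 1 and is essential for release at most excitatory synapses of mice, had 28.8, 64.0 and 43.6 CPM in Tau libraries, against 28.1, 27.0 and 36.2 CPM in control libraries. Tau library 2 was the high one and Tau library 1 lay inside the control range (log2 fold change 0.58, SE 0.25, adjusted p = 0.156 by edgeR). UNC13B, its relative, averaged 16.9 ± 2.69 CPM in Tau and 16.7 ± 1.33 CPM in control libraries, with a 95% interval of the log2 fold change from -0.38 to 0.40. CADPS, which primes dense-core granules, averaged 9.55 ± 1.53 CPM in Tau and 11.1 ± 2.14 CPM in control libraries (SD, n = 3 each, log2 fold change -0.22).

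The active zone scaffolds showed no call either. RIMS2, which tethers calcium channels to vesicles, had the highest level per length of these 4, with 18.3, 20.2 and 18.7 CPM in Tau libraries, against 31.9, 23.5 and 21.4 CPM in control libraries. All Tau libraries were below all control libraries (log2 fold change -0.43, SE 0.19, adjusted p = 0.156 by edgeR). RIMS2 shares 221 bases with a processed pseudogene on the same strand, which had 339 counts in Tau and 725 counts in control libraries, so part of its reads may be split. PCLO, the giant scaffold piccolo, had 19.0, 21.1 and 17.8 CPM in Tau libraries, against 25.9, 27.7 and 21.4 CPM in control libraries, again without overlap (log2 fold change -0.37, SE 0.17, adjusted p = 0.173 by edgeR). Bassoon (BSN), the relative of piccolo, did not follow it, at 8.82 ± 1.10 CPM in Tau and 8.62 ± 1.08 CPM in control libraries (log2 fold change 0.04). RIMS1, the partner of RIMS2, was at 11.5 ± 0.481 CPM in Tau and 11.5 ± 1.58 CPM in control libraries (SD, n = 3 each, 95% interval of the log2 fold change -0.39 to 0.40). Whether PCLO differed from BSN, or RIMS2 from RIMS1, in fold change was not tested.

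RAB3 GTPases mark vesicles for the active zone. RAB3A, the main neuronal form, had 24.3, 13.3 and 19.2 CPM in Tau libraries, against 11.2, 19.6 and 17.0 CPM in control libraries (log2 fold change 0.25, SE 0.25, adjusted p = 0.536 by edgeR). The groups overlapped widely, and those of RAB3C did as well, at 15.7 ± 1.52 CPM in Tau and 17.6 ± 2.74 CPM in control libraries (SD, n = 3 each). RPH3A, rabphilin, a RAB3 effector with calcium-binding C2 domains, had 7.66, 6.98 and 8.40 CPM in Tau libraries, against 4.11, 4.77 and 6.75 CPM in control libraries. Every Tau library of RPH3A was above every control library, by 0.56 on the log2 scale (SE 0.23, adjusted p = 0.128 by edgeR), which did not pass the test.

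None of the 3 tested membrane glycoproteins of the vesicle was called. SV2A, a transporter-like protein and the target of levetiracetam, had 50.7, 46.2 and 46.5 CPM in Tau libraries, against 43.2, 43.9 and 58.0 CPM in control libraries (log2 fold change -0.02, SE 0.17, adjusted p = 0.96 by edgeR). Its 95% interval ran from -0.39 to 0.36, and SYP, synaptophysin, the most used vesicle marker, ran from -0.62 to 0.36 around -0.13. SV2C, the form enriched in basal ganglia, had 27.8, 24.3 and 26.4 CPM in Tau libraries, against 36.8, 35.9 and 31.7 CPM in control libraries. All Tau libraries of SV2C lay below all control libraries, yet it was not called (log2 fold change -0.41, SE 0.16, adjusted p = 0.114 by edgeR). SV2B had too few reads for the filter, with 2, 1 and 2 counts in Tau libraries, against 9, 11 and 7 counts in control libraries. Without the filter on low counts SV2B was called lower (log2 fold change -2.01, adjusted p = 0.0662 by edgeR), on 5 counts in Tau and 27 in control libraries.

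Synapsins tie vesicles into the reserve pool, and all 3 genes had positive fold changes, none of them called. With scaling by total counts SYN2 was at -0.15, and after removal of the GC trend SYN1 was at 0.05, SYN2 at 0.01 and SYN3 at 1.06. SYN1 had 26.5, 19.6 and 21.6 CPM in Tau libraries, against 14.4, 19.4 and 18.1 CPM in control libraries. Tau library 2 was only just above control library 2 (log2 fold change 0.38, SE 0.19, adjusted p = 0.204 by edgeR). SYN2 overlapped, with 14.3, 11.4 and 11.6 CPM in Tau libraries, against 10.2, 11.6 and 11.3 CPM in control libraries. SYN3, which is rare here, had 0.638, 0.673 and 0.624 CPM in Tau libraries, against 0.217, 0.189 and 0.545 CPM in control libraries. These came from 19, 16 and 17 counts in Tau and 7, 8 and 16 counts in control libraries, without overlap on the CPM scale (log2 fold change 1.06, SE 0.44, adjusted p = 0.136 by edgeR).

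SYN1 and RPH3A shared a sequence feature that the list was not chosen for. RE1 is the element bound by the repressor REST, which keeps neuronal genes off outside neurons, and its core was searched on both strands as CAGCACC, any 2 bases, then GGACAG. This string was in the promoter windows of 16 of 27305 genes (0.0586%), and of these 16 SYN1 and RPH3A were members (5.88% of the 34 with a window). Both windows are printed for this string, the only one in capitals apart from the cyclic AMP response element TGACGTCA in SYN1. In SYN1, chrX:47619808-47620107 on the minus strand, the RE1-like string begins 231 bases and the cyclic AMP response element 159 bases before the start site. In RPH3A, chr12:112791498-112791797 on the plus strand, the RE1-like string is on the minus strand, 196 bases before the start site, and an overlapping RPH3A window holds it too.
SYN1 promoter: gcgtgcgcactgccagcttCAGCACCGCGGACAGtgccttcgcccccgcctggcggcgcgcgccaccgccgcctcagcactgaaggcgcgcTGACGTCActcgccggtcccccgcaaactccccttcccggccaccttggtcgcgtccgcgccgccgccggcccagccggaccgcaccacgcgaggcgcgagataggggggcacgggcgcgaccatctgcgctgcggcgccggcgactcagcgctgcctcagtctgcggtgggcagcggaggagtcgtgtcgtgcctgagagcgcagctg
RPH3A promoter: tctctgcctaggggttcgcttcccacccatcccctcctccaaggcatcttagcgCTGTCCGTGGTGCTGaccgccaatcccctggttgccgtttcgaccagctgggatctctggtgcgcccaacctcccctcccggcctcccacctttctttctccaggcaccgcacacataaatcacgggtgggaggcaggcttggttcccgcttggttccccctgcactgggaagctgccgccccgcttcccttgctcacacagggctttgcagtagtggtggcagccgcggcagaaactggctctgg
The cyclic AMP response element was in 2 of 34 members (5.88%), SH3GL2 and SYN1, against 2.25% of genes with a window. The E box CACGTG was in 2 of 34 members (5.88%), NAPA and UNC13A, against 8.775% of genes with a window. Neither SYN1 nor RPH3A was called with TMM scaling over all libraries, and each was called under 1 of the 19 alternative settings. SYN1 was called higher with the mitochondrial share in the model (log2 fold change 0.65, adjusted p = 0.0968 by edgeR) and RPH3A without control library 3 (log2 fold change 0.78, adjusted p = 0.0266 by edgeR). After removal of the GC trend SYN1 was at 0.05 (adjusted p = 0.893 by edgeR) and RPH3A at 0.47 (adjusted p = 0.198 by edgeR). The strings describe letters and not sites.

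DNAJC5, cysteine string protein, a vesicle chaperone that keeps SNAP25 folded, was among the least changed members. It had 25.8, 20.8 and 23.3 CPM in Tau libraries, against 20.1, 21.8 and 24.8 CPM in control libraries (log2 fold change 0.07, 95% interval -0.30 to 0.44, adjusted p = 0.82 by edgeR).

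In the endocytic group, DNM1 was higher in Tau libraries. DNM1, the neuronal dynamin that cuts vesicles from the plasma membrane, had 98.1, 134 and 105 CPM in Tau libraries, against 57.7, 44.6 and 86.8 CPM in control libraries. Control library 3 came closest to the Tau libraries, and the mean was 112 ± 18.8 CPM in Tau and 63.0 ± 21.6 CPM in control libraries (SD, n = 3 each). The log2 fold change was 0.83 (SE 0.24, adjusted p = 0.0477 by edgeR), a 1.78-fold higher level. After removal of the GC trend it was 0.60 (adjusted p = 0.119 by edgeR), with scaling by total counts 0.51 (adjusted p = 0.162), and with the mitochondrial share in the model 0.36 (adjusted p = 0.351). The call was also lost without Tau library 2 (log2 fold change 0.68), Tau library 3 (0.90), control library 1 (0.77) or control library 2 (0.63). DNM1 lies at chr9:128191655-128255248 on the plus strand (GRCh38) and shares 46 bases with CIZ1 on the opposite strand. Its 17 pseudogenes together had 64, 40 and 33 counts in Tau libraries, against 34, 35 and 37 counts in control libraries, far below the 2865 to 3178 counts of DNM1 in Tau and 1864 to 2546 counts in control libraries.

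The window of DNM1, chr9:128203129-128203428 on the plus strand (GRCh38.p14, RefSeq), is printed as that of a called member, with its GC box in capitals 24 bases before the start site.
DNM1 promoter: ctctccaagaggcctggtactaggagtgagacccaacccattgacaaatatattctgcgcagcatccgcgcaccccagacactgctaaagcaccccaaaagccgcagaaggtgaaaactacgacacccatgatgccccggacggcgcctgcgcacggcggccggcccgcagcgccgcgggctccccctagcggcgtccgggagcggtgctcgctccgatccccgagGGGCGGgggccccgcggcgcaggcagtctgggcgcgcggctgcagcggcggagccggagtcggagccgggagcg
DNM3, the dynamin of dendritic spines, had 1.38, 0.925 and 1.14 CPM in Tau libraries, against 1.55, 1.46 and 1.02 CPM in control libraries (log2 fold change -0.23, SE 0.31, adjusted p = 0.654 by edgeR). Per length, DNM1 was 99.0 ± 0.332% of the dynamin pair in Tau and 97.8 ± 0.990% in control libraries (SD, n = 3 each, p = 0.2 in a two-sided exact permutation test).

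The other recycling genes were not called. SNAP91, the clathrin adaptor AP180, had the highest level per length of the group, with 44.3, 65.0 and 58.5 CPM in Tau libraries, against 62.3, 43.9 and 55.6 CPM in control libraries (log2 fold change 0.05, SE 0.20, adjusted p = 0.883 by edgeR). SYNJ1, the phosphatase that strips clathrin from new vesicles, had the lowest fold change of the 36 tested members. It had 8.63, 12.5 and 8.84 CPM in Tau libraries, against 19.2, 14.2 and 11.3 CPM in control libraries, with Tau library 2 inside the control range (log2 fold change -0.58, SE 0.23, adjusted p = 0.124 by edgeR). AMPH, amphiphysin, had 0 counts in every library, a level under 3 counts or 0.0708 to 0.126 CPM by library, which covers counting error only. SH3GL2, endophilin A1, had 4 counts in Tau and 6 counts in control libraries in all.

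**Figure D3:**
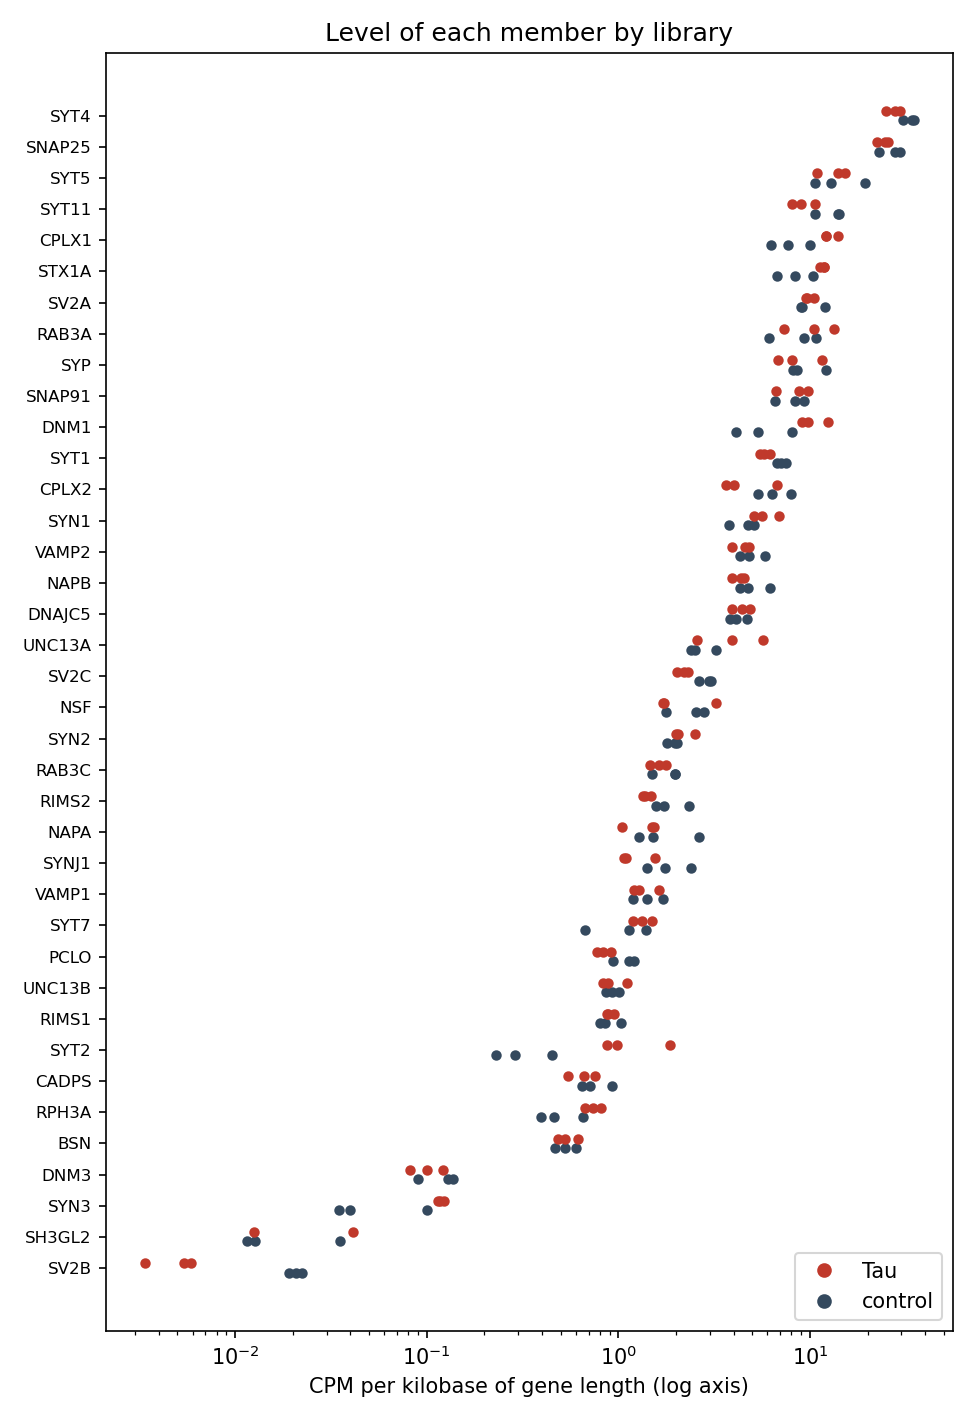
Level of each member in each library as CPM per kilobase of gene length on a log axis, ordered by the mean over all libraries, Tau in red above control in blue. AMPH and the Tau library of SH3GL2 with 0 counts cannot be drawn on this axis, and SYT4 and SNAP25 lead the order.

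Per length of gene, the levels ran over a wide range. SYT4 and SNAP25 led with 30.3 and 25.5 CPM per kilobase over all libraries, followed by SYT5 at 13.8, SYT11 at 11.1, CPLX1 at 10.4 and STX1A at 10.1. SV2A at 9.97, RAB3A at 9.58, SYP at 9.25, SNAP91 at 8.26 and DNM1 at 8.13 CPM per kilobase came next, with library ranges that overlap between neighbours. SYT2 stood at 1.24 CPM per kilobase in Tau and 0.324 CPM per kilobase in control libraries, so the member with the largest fold change remained below SYT1, at 5.81 in Tau and 7.10 in control libraries. At the low end were DNM3 at 0.110, SYN3 at 0.0883, SH3GL2 at 0.0188 and SV2B at 0.0128 CPM per kilobase.

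Shares within 10 pairs of relatives were compared, with p-values from two-sided exact permutation tests. SYN1 made up 72.9 ± 0.928% of SYN1 with SYN2 in Tau and 69.9 ± 1.96% in control libraries (SD, n = 3 each, exact p = 0.1). SYT2, CPLX1 and SYN1 were the pairs at the smallest possible p, which adjusted over the 10 pairs was 0.333 for each. For the other 7 pairs the exact p ran from 0.2 to 0.8, among them SV2A with SV2C, where SV2A made up 82.0 ± 0.590% in Tau and 77.3 ± 4.10% in control libraries (SD, n = 3 each, exact p = 0.3). With 3 against 3 libraries no pair could pass 0.05.

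**Figure D4:**
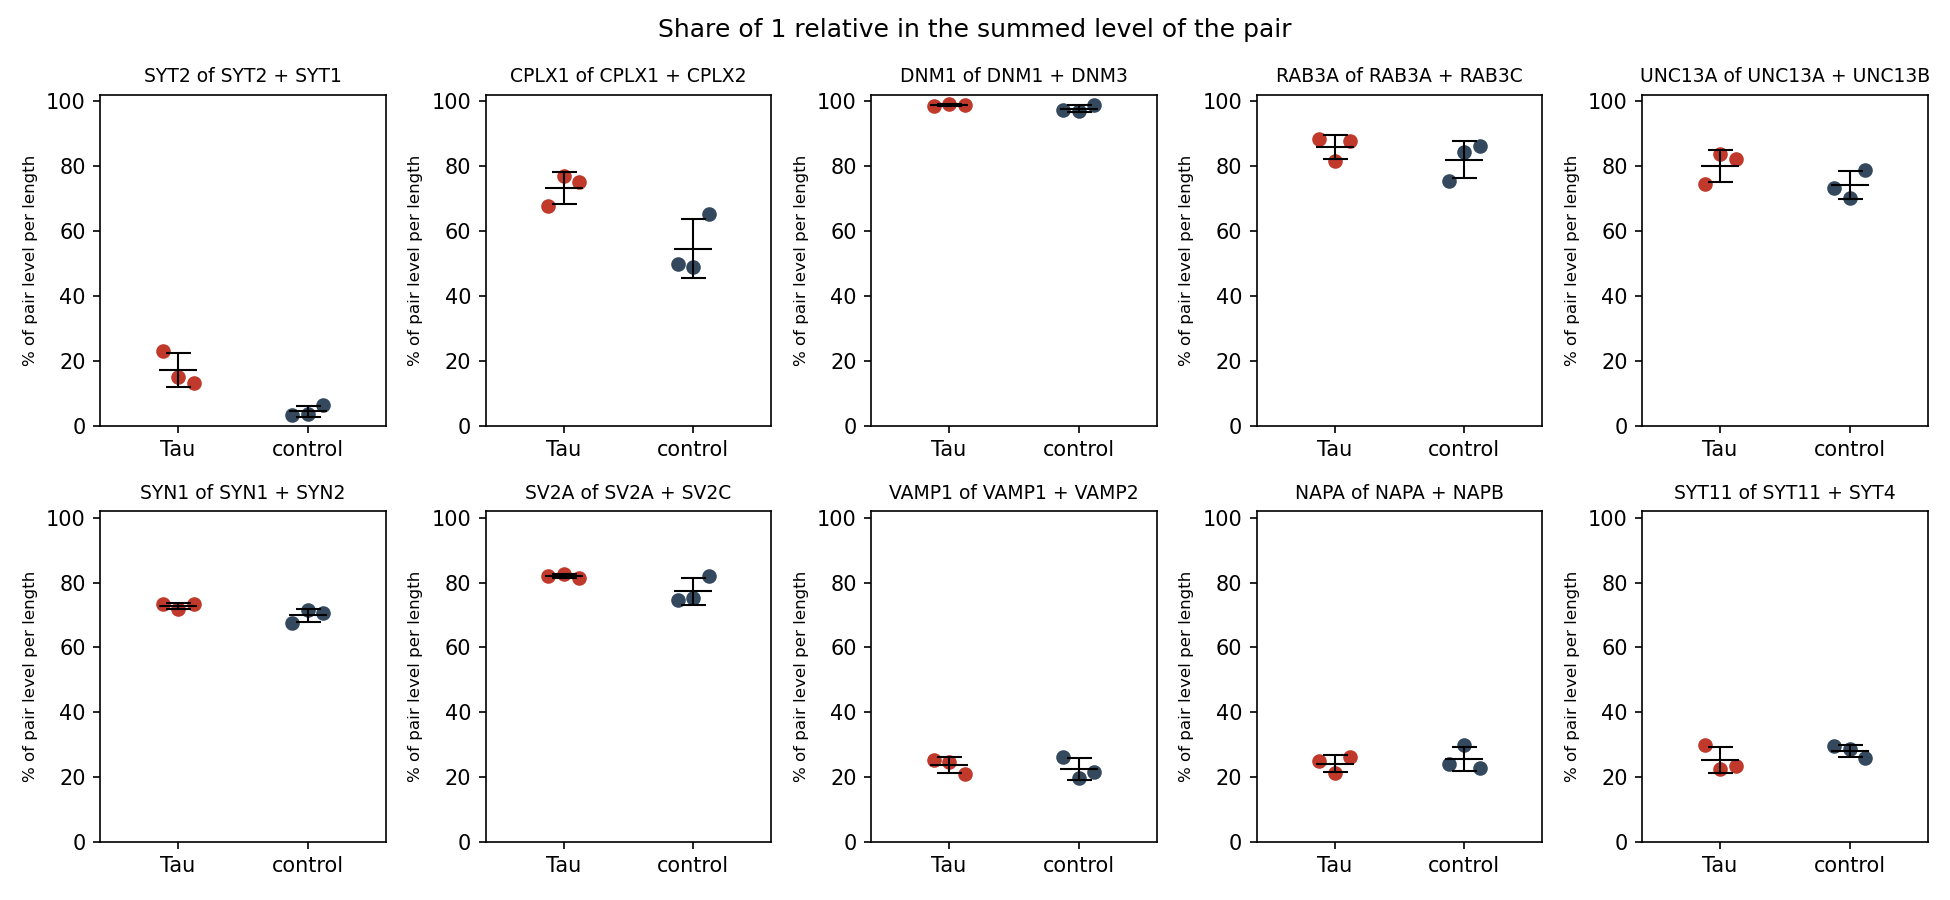
Share of 1 relative in the summed level per length of 10 pairs of related members, in percent, by library, with the mean and SD as bars and Tau left of control. The shares of SYT2, CPLX1 and SYN1 do not overlap between groups, and the other 7 pairs do.

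Fold changes of members ran along GC content, as did those of all genes. The Spearman correlation of GC content with log2 fold change was 0.59 over 36 members and 0.48 over 16663 tested genes with a GC value, given as a description, since these genes share the same libraries. Of 11 members under 45% GC, 10 had a negative fold change (90.9%), against 73.5% of all genes in that range. None was called in either direction, against 3.12% of all genes called higher and 17.5% called lower in that range. Of 11 members from 45 to 55% GC, 6 were negative (54.5%), against 53.0% of all genes, and SYT2 was called higher. In this middle range 7.71% of all genes were called higher and 4.32% lower. Of 14 members over 55% GC, 4 were negative (28.6%), against 24.9%, and CPLX1 and DNM1 were called higher. In this upper range 19.0% of all genes were called higher and 1.51% lower. With the trend removed, the correlation over members was -0.01, and SYT2 was the only member called (log2 fold change 1.90, adjusted p = 0.0166 by edgeR). SYN3 also kept its fold change, at 1.06 with and without the trend, while SYT4 moved to 0.06 and SYT1 to -0.06. CPLX2 moved further down to -0.70 (adjusted p = 0.123 by edgeR).

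**Figure D5:**
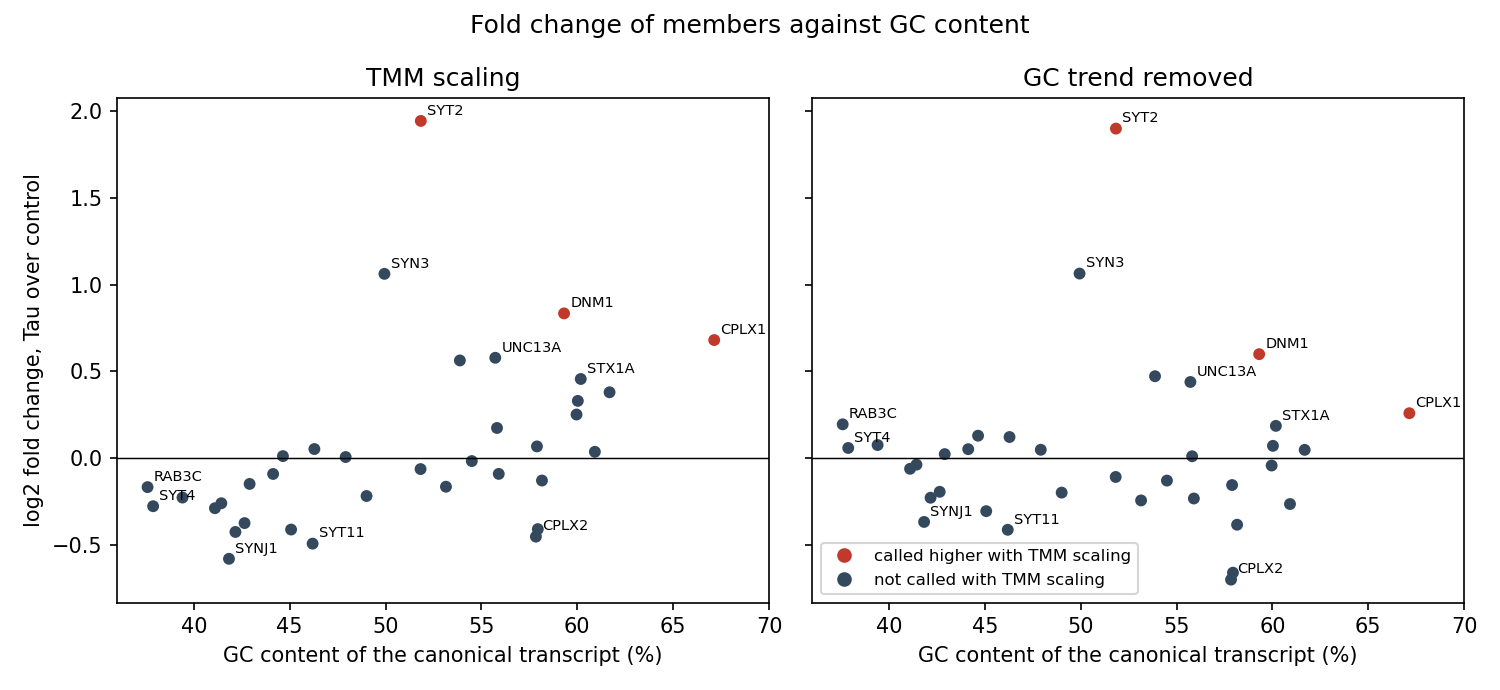
Log2 fold change of the 36 tested members against the GC content of the canonical transcript in percent, with TMM scaling (left) and after removal of the GC trend (right), red for members called higher with TMM scaling. The upward slope on the left is gone on the right, where SYT2 stays at 1.90 and CPLX1 drops to 0.26.

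A wider list of 126 other genes of the vesicle cycle was read in the same fit, 107 of which were tested. Of these, 17 were higher (15.9%, against 9.37% of all tested genes) and 10 lower (9.35%, against 8.42%), with a median log2 fold change of 0.05. The 4 higher genes with the smallest p were SYNPR, SYTL4, STON1 and PACSIN1. SYNPR, synaptoporin, a relative of synaptophysin, had 1.15 ± 0.151 CPM in Tau and 0.211 ± 0.0776 CPM in control libraries (log2 fold change 2.43, adjusted p = 0.00762 by edgeR). SYTL4, granuphilin, which docks granules, had 5.12 ± 0.270 CPM in Tau and 2.33 ± 0.468 CPM in control libraries (log2 fold change 1.14, adjusted p = 0.0184 by edgeR). STON1, a stonin of clathrin coats, and PACSIN1, a dynamin-binding membrane bender, had log2 fold changes of 1.35 and 2.40 (adjusted p = 0.0197 and 0.0198 by edgeR). PACSIN1 had few reads, with 33, 11 and 16 counts in Tau libraries, against 2, 6 and 6 counts in control libraries.

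The 4 lower genes with the smallest p were SYT14, SYPL1, LIN7C and DNAJC6. SYT14, a synaptotagmin that does not bind calcium, had 10.6, 9.80 and 9.17 CPM in Tau libraries, against 27.2, 25.3 and 13.5 CPM in control libraries (log2 fold change -1.16, adjusted p = 0.0187 by edgeR). SYPL1, the widely expressed relative of synaptophysin, had 9.43 ± 1.13 CPM in Tau and 19.5 ± 5.60 CPM in control libraries (log2 fold change -1.05, adjusted p = 0.0187 by edgeR), opposite in sign to SYNPR. DNAJC6, the auxilin that uncoats clathrin, and LIN7C, an adaptor of the presynaptic scaffold, had log2 fold changes of -0.92 and -0.75 (adjusted p = 0.0425 and 0.0278 by edgeR). After removal of the GC trend LIN7C was at -0.28 and no longer called (adjusted p = 0.295 by edgeR), while SYT14 was at -0.68, SYPL1 at -0.67 and DNAJC6 at -0.74, each still called. With the GC trend removed, 10 genes of the wider list were higher and 5 lower, against 1062 and 663 of all 16778 tested genes. Without control library 1 the wider list had 1 and 0, the lowest of any library left out. All tested genes then gave 179 and 71 of 17028.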

How the data were processed

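SH-SY5Y cells were measured by RNA-seq in 3 Tau and 3 control libraries, all analysed here. By the methods and labels, the authors used bcl2fastq 1.8.4, TopHat2 2.1.0 on GRCh38 (1 alignment per read) and featureCounts 1.5.0 to make the deposited counts, while the deposited RPM and RPKM values, made by the authors from those counts, served here only for gene lengths. The labels name a TruSeq stranded mRNA kit and the methods another directional kit, and the strand setting of the counting is not given in the sources used here.

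Counts were tested in R 4.3.3 with edgeR 4.0.16 (TMM, low-count filter, quasi-likelihood F test on the label, Benjamini-Hochberg adjustment). DESeq2 1.42.0, limma 3.58.1 and other settings, 19 in all, were tried, and the test was checked on simulated data. The GC trend was removed with a lowess curve of span 0.3 per library. Positions and GC content came from GENCODE 44, except promoters (RefSeq).

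Members, roles and the wider list were chosen with earlier results of these data known. Values in every library are given for each called member, its relative and the member with the highest level per length of each role, and for others chosen after their values were seen. Of the wider list, the 4 called genes with the smallest p in each direction are named. Counts of replicates differed beyond sampling noise. The level of a further marker gene is not reported here.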

Additional observations from a re-analysis of the deposited data

How the results depend on the processing

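No member changed sign while called under any of the 19 alternatives. Main counts were 1572 genes higher and 1413 lower of all tested, 3 and 0 among members, and 17 and 10 in the wider list. Scaling by total counts moved the median log2 fold change of all genes by -0.33 and gave 559 higher and 2886 lower (16.2% of calls higher, against 52.7% with TMM), members 1 and 6 (lower: PCLO, RIMS2, SV2C, SYNJ1, SYT11 and SYT4), and wider list 9 and 17. Removing the GC trend gave 1062 higher and 663 lower (61.6% of calls higher), of which 911 and 511 were shared with the main calls, left 1 member higher (SYT2), and gave 10 and 5 in the wider list. With the mitochondrial share as a covariate, 721 genes were higher and 601 lower, SYN1 and SYT2 were the members higher, and the wider list had 9 and 3. At a false discovery rate under 0.05, 899 were higher and 716 lower of all tested, and 4 lower in the wider list. Without the low-count filter, 3 members were lower (SV2B, SYNJ1 and SYT11) and UNC13A was also higher. limma-voom also called SYN3.

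Same-numbered Tau and control libraries correlated at -0.15, -0.46 and 0.17 in their deviations, and unlike-numbered ones at -0.36 to 0.44. With 3 libraries in each group, these values cannot settle whether replicate numbers pair the libraries. With the replicate block, 925 genes were lower of all tested and 6 in the wider list, and members stayed at 3 and 0. With the block and the GC trend removed, 410 were higher and 161 lower of all tested, 1 member was higher, and the wider list had 7 and 0.

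Leaving out 1 library gave 179 to 2603 higher and 71 to 2541 lower of all tested, 1 to 7 higher and 0 to 3 lower among members, and 1 to 25 higher and 0 to 12 lower in the wider list. The fewest calls of all tested genes came without control library 1 and the most without control library 3, which added RPH3A, STX1A, SYN3 and UNC13A as higher and RIMS2, SYNJ1 and SYT11 as lower. Without Tau library 1, UNC13A was also higher and CPLX2 lower. The causes were not tested. Depth limits SV2B, SH3GL2, AMPH and SYN3.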
